A study of Mus musculus with 4 samples.

Results

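The mitochondrial respiratory chain genes described here are the protein-coding genes of the mouse nucleus whose symbols start with Nduf, Uqcr, Cox4 to Cox8, Sdha to Sdhd or Atp5. They were chosen by symbol alone from the gene table of the mm10 assembly, and 100 of 21883 protein-coding genes met the rule. The assay was ATAC-seq on 2TS22C cells, a mouse embryonic stem cell line, and it uses a transposase to cut accessible DNA and tag it for sequencing. The SOX17FNV group carried a lentivirus for SOX17FNV, an engineered form of SOX17, and the SOX2 group carried a lentivirus for SOX2. Both groups shared silencing of their own Sox2, treatment with DOX and a 2i serum/LIF medium. There were 2 libraries per group, titled as biological replicates, from 900000 cells each. Whether the cells were clones or pools, how much of each SOX factor they held, and whether the replicates were separate derivations is not stated in the labels, so p-values measure the spread between these libraries only.

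The respiratory chain moves electrons from NADH and succinate to oxygen and stores the energy as a proton gradient across the inner mitochondrial membrane. Complex I takes electrons from NADH and complex II takes them from succinate, complex III passes them to cytochrome c, complex IV reduces oxygen, and ATP synthase turns the gradient into ATP. Most subunits are encoded in the nucleus, and NRF1, ETS factors such as GABP, and YY1 are known regulators of many of their promoters. Embryonic stem cells use both glycolysis and oxidative phosphorylation, and several complex IV subunits have separate isoforms for muscle, lung or testis.

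The authors deposited 1 list of peaks per library. The lists held 120341 and 92851 peaks in the SOX17FNV libraries, against 123214 and 96500 peaks in the SOX2 libraries. Peaks of the 4 lists that overlapped by at least 1 bp were joined into 170898 regions, of which 57783 (33.8%) were called in all 4 libraries and are named shared regions. The summit pileup is the number of sequenced fragments or reads stacked at the highest point of a peak, and it was recovered as a whole number from the deposited values. Its median over the shared regions was 33 and 24 in the SOX17FNV libraries, against 35 and 28 in the SOX2 libraries, lower in replicate 2 of both groups. The lowest local background pileup was 3.91 and 3.27 in the SOX17FNV libraries, against 4.17 and 5.02 in the SOX2 libraries, so the 2 values order the SOX2 libraries differently and depth was not settled by them. The relative pileup is a pileup divided by that median of its own library. No read totals were used here, and a region missing from a list fell below the authors' threshold, which is not the same as a pileup of 0. A peak within the gene span plus 1 kb was called in all 4 libraries at 10 of 10 pluripotency markers, 4 of 8 fibroblast markers and 7 of 8 muscle markers, beside 74% of all protein-coding genes. Of the fibroblast markers, Col1a1, Col1a2, Thy1 and Fbn1 had a peak in all 4 libraries. Col3a1 had one only in the SOX17FNV libraries, in both of them, and Postn, Lum and Dcn had no peak in any library. By the stricter measure, a listed start site inside a peak in all 4 libraries, the counts were 4 of 8 pluripotency, 1 of 4 fibroblast and 0 of 7 muscle markers, beside 53.7% of all genes with a listed start site. Nanog was covered there in 4 libraries and Pou5f1 and Klf4 in 1 each, and no muscle marker was covered in any library.

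Respiratory chain genes were accessible almost without exception in both groups. A peak lay within the gene span plus 1 kb at 96 of the 100 genes in each SOX17FNV library and at the same number in each SOX2 library, and the same 96 genes had a peak in all 4. The share over all protein-coding genes was 74% (16198 of 21883). The exact two-sided permutation test of the number of genes with a peak gave p = 1, and with 2 libraries against 2 it cannot give a p below 0.333. The genes with no peak in any library were Ndufb4b (chr19:25033108-25033578) and Ndufb4c (chr15:73809449-73809933), further loci named after the complex I subunit gene Ndufb4, and Cox6a2 (chr7:128205435-128206366) and Cox8b (chr7:140898942-140900446), which encode muscle isoforms of complex IV subunits. Ndufb4 itself had a shared region, with pileups of 45 and 45 in the SOX17FNV libraries, against 54 and 44 in the SOX2 libraries. How reads that match several loci were handled is not stated in the labels, and its part in the missing peaks was not tested.

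Start sites were listed for 82 of the 100 genes in the RefSeq promoter table for GRCm38.p6, which shares its chromosome coordinates with mm10. They lay inside a peak at 79 and 79 genes in the SOX17FNV libraries and at 80 and 80 genes in the SOX2 libraries, a mean difference of -1 (exact two-sided permutation p = 0.333, the lowest this design allows). In all 4 libraries together the count was 78 of 82 (95.1%), against 9393 of 17491 protein-coding genes (53.7%). Of the other 4 genes, Ndufa13 lacked a peak over its start site only in SOX17FNV replicate 1, Cox7b2 lacked one only in SOX17FNV replicate 2, and Cox8b and Ndufb4b lacked one in every library. The 78 genes for mitochondrial ribosomal proteins, a set of similar size that also serves the mitochondrion, were all called in all 4 libraries, and 68 of their 69 listed genes (98.6%) had an open start site in all 4. The near-complete accessibility was thus found in another nuclear set for the mitochondrion too.

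The promoter sequences below are examples from open start sites and from 2 closed ones. Each runs over 120 bases, from 90 before the start site to the 30th base from it, 5′ to 3′ on the strand of the gene, from RefSeq (GRCm38.p6). Capitals mark exact matches on either strand to the NRF1 core GCGCATGCG, the ETS core CCGGAAG or the YY1 core AAGATGGCG. Uqcr11 (chr10:80406792-80406911, minus strand) encodes a small subunit of complex III. Atp5k (chr5:108434370-108434489, minus strand) and Atp5j (chr16:84834947-84835066, minus strand) encode the e and F6 subunits of ATP synthase. Ndufaf8 (chr11:120098844-120098963, plus strand) is a complex I assembly factor, and Cox8a (chr19:7217587-7217706, minus strand) encodes the broadly expressed form of complex IV subunit 8.
Uqcr11: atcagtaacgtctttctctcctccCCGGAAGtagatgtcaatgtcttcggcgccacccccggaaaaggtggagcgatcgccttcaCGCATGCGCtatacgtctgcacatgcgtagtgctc
Atp5k: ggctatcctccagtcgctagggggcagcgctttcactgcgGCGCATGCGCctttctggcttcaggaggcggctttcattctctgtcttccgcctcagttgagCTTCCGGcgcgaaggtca
Atp5j: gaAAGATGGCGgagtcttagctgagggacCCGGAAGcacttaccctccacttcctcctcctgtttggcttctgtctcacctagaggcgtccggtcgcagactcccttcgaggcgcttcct
Ndufaf8: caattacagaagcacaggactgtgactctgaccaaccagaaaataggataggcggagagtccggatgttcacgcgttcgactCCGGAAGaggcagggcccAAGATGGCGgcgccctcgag
Cox8a: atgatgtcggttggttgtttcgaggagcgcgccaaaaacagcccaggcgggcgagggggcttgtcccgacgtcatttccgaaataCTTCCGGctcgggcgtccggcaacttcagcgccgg

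These 5 start sites lay inside a peak in all 4 libraries. The Uqcr11 and Atp5k stretches hold an ETS and an NRF1 match, those of Atp5j and Ndufaf8 hold an ETS and a YY1 match, and that of Cox8a holds an ETS match. In Atp5k the NRF1 letters are met on both strands at once, since the core and its reverse complement overlap. The next sequences come from the 2 listed start sites with no peak in any library, Cox8b (chr7:140900417-140900536, minus strand) and Ndufb4b (chr19:25033018-25033137, plus strand).
Cox8b: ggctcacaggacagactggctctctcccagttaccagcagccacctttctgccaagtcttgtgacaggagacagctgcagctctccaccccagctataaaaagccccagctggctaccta
Ndufb4b: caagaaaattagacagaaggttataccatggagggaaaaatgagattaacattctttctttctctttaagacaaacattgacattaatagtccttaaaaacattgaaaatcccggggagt

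Neither stretch holds any of the 3 cores, and both are poor in CpG, the dinucleotide that is dense in CpG island promoters. In the full 300 bases around the start, Cox8b had 2 CpGs and a ratio of observed to expected CpG of 0.115, and Ndufb4b had 5 CpGs and a ratio of 0.399. The median over the 87 start sites of the respiratory chain genes was 20 CpGs and a ratio of 0.829, against 13 CpGs and 0.567 over all 21262 listed start sites. A ratio over 0.6 was found at 83.9% of the respiratory chain start sites and at 47.6% of all. Among respiratory chain start sites with a ratio over 0.6, 71 of 73 (97.3%) lay inside a peak in all 4 libraries, against 80.6% of all such start sites. Among those with a lower ratio, 11 of 14 (78.6%) did, against 22.1% of all, so the genes stood above the general share in both classes.

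NRF1, ETS and YY1 cores were more frequent in these promoters than in promoters at large. Counted on either strand in the 300 bases from 250 before to 50 after the start, the NRF1 core was found in 10 of 82 genes (12.2%, against 2.61% of 17491 genes). The ETS core was found in 22 genes (26.8%, against 12.9%) and the YY1 core in 8 (9.76%, against 2.14%). At least 1 of the 3 was found in 34 genes (41.5%), against 16.6% of all genes and 52.2% of the mitochondrial ribosomal protein genes. The CRE, TGACGTCA, was found in 4 genes (4.88%, against 2.54%), and the SP1 box, GGGCGGG, in 30 (36.6%, against 36.9%). The SOX core, ACAATGG, was found in 2 genes, Cox7a2 and Sdhd (2.44%, against 3.41%). None of these motifs contains another. All 34 start sites with an NRF1, ETS or YY1 core lay inside a peak in all 4 libraries, and 48 of the 53 without one (90.6%) did as well, beside 85.6% and 43.8% of all start sites with and without one. The strongest shared regions of genes with and without a core had the same median relative pileup, 1.77 (34 and 46 genes). These matches are letters in a window and no measure of binding.

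**Figure D1:**
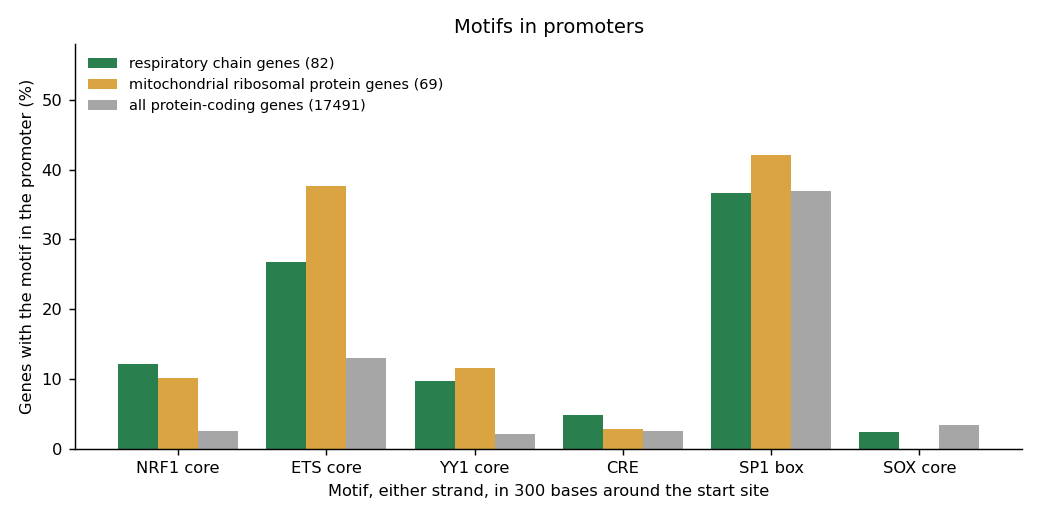
Share of genes (%, vertical axis from 0) whose 300 base promoter holds each motif on either strand, for 82 respiratory chain genes (green), 69 mitochondrial ribosomal protein genes (yellow) and all 17491 listed protein-coding genes (grey). The NRF1, ETS and YY1 cores stand at 12.2%, 26.8% and 9.76% in respiratory chain genes against 2.61%, 12.9% and 2.14% of all genes, while the SP1 box is level at 36.6% and 36.9%.

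The 100 genes held 246 regions, of which 141 (57.3%, beside 33.8% of all regions) were shared. Of the genes with a peak, 31 had 1 region and 62 had 2 to 5. Ndufaf2, Ndufs4 and Ndufaf5 had 17, 15 and 7 regions, and Ndufaf2 and Ndufs4 span 106064 and 100300 bp, against a median span of 7336.5 bp over the 100 genes. Shared regions were wide, with a median of 1022 bp, and 92 of the 141 covered an end of a gene span. In contrast, the 97 regions called in 1, 2 or 3 libraries without following the groups had a median width of 329 bp. Of these, 77 lay inside a span without touching its ends.

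Peak summits sat on the start sites. Over the 82 start sites inside a peak in all 4 libraries, the highest summit lay at a median of -20 bp, that is upstream, with quartiles at -72.8 and 52.5 bp. Over all 10624 such start sites the median was -19 bp and the quartiles were wider, at -119 and 81 bp. The summit lay within 150 bp of the start at 81.7% of the respiratory chain sites, at 66.5% of all sites and at 68.9% of the mitochondrial ribosomal protein sites.

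**Figure D2:**
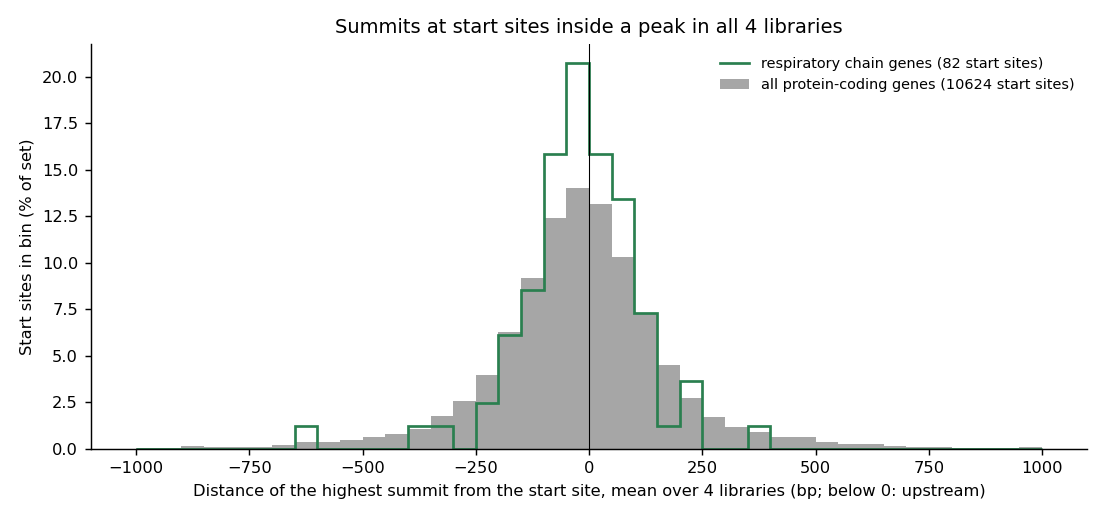
Distance in bp from the start site to the highest summit, as the mean over 4 libraries (horizontal axis, below 0 is upstream, 1000 bp to each side), against the share of start sites per 50 bp bin (%). The 82 respiratory chain start sites (green line) crowd nearer to 0 than all 10624 open start sites (grey), with 81.7% and 66.5% within 150 bp.

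Many of these genes share their open promoter with a neighbour. A head-to-head partner, a protein-coding gene that starts within 1 kb upstream on the other strand, was found for 23 of 82 genes (28.0%), against 8.48% of all genes and 34.8% of the mitochondrial ribosomal protein genes. The strongest shared region also held the start site of another gene at 26 of the 96 genes, a count given without a share over all genes. Examples are Atp5j with Gabpa, which encodes the DNA-binding subunit of GABP, Sdhd with Timm8b, Ndufaf2 with Ercc8, and Ndufb5 with Mrpl47. The accessibility of such a region cannot be assigned to either gene alone.

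The level of accessibility was taken from the strongest shared region of each gene, which held a listed start site of the gene in 74 of the 80 genes with both. The mean relative pileup over the 4 libraries ran from 0.513 at Cox8c to 2.71 at Cox6b2, with a median of 1.73 over 96 genes and 1.55 over all genes with a shared region. In 91 of the 96 genes it exceeded 1, the median shared region. By the deposited fold enrichment, the strongest region of the median gene stood at percentile 88.5 and 89.7 of the SOX17FNV lists and at 87.1 and 90.6 of the SOX2 lists. For all protein-coding genes it stood at 85.1 and 83.9 of the SOX17FNV lists and at 83.9 and 84.7 of the SOX2 lists. The 2 measures can order genes differently, and the ranks given below are by relative pileup. For example, Ndufaf3 had a mean relative pileup of 2.55. It stood at percentiles 59.9 and 37.1 of the SOX17FNV lists and at 21.1 and 63.6 of the SOX2 lists. These values describe the lists and carry no test.

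**Figure D3:**
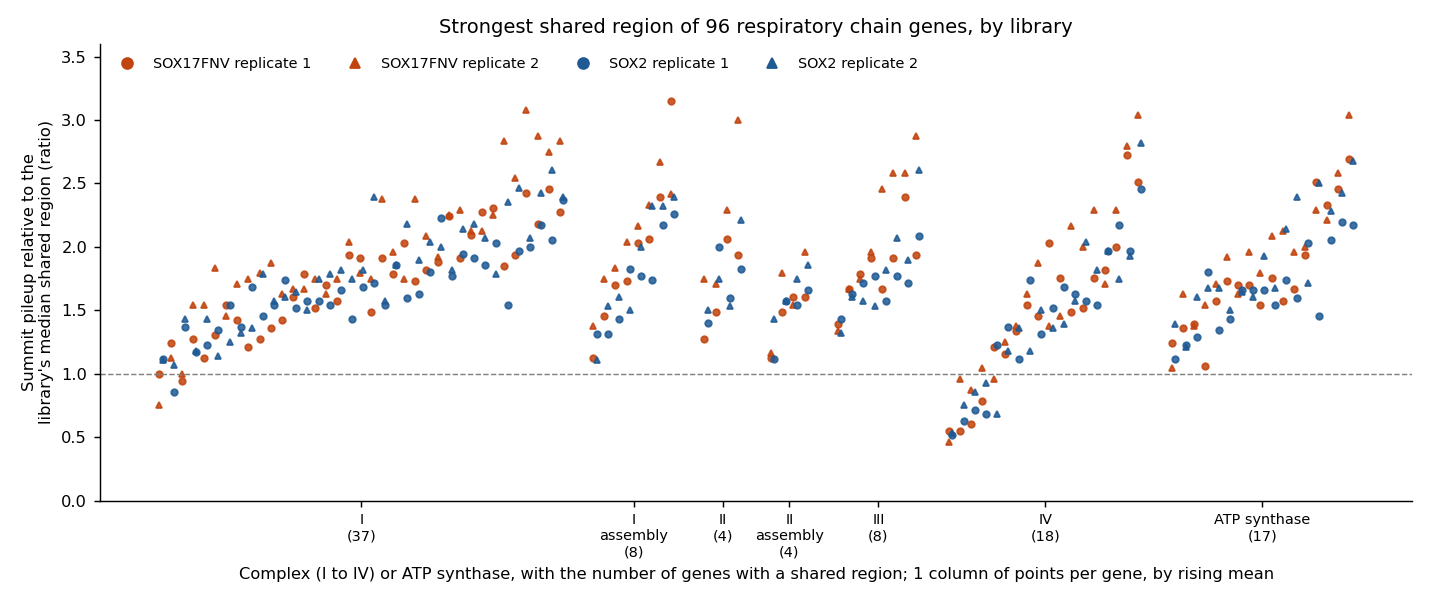
Relative pileup (ratio to the median shared region of the library, vertical axis from 0) at the strongest shared region of 96 genes, 1 column of points per gene, ordered by mean within each complex. Red marks the SOX17FNV libraries and blue the SOX2 libraries, with circles for replicate 1 and triangles for replicate 2, and the dashed line marks a ratio of 1. Complex IV holds the lowest and the highest gene, Cox8c at 0.513 and Cox6b2 at 2.71, and the groups overlap at 64 of the 96 genes.

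In complex I, the entry point for electrons from NADH, 37 of 39 genes had a shared region, with a median relative pileup of 1.80. Ndufa11, an accessory subunit of the membrane arm, was the highest, with pileups of 75 and 68 in the SOX17FNV libraries, against 83 and 67 in the SOX2 libraries. Ndufs7, a core iron-sulfur subunit, followed with 81 and 66 in the SOX17FNV libraries, against 72 and 73 in the SOX2 libraries. Ndufa9, an accessory subunit, was the lowest, with 33 and 18 in the SOX17FNV libraries, against 39 and 31 in the SOX2 libraries. Relative to their libraries, the groups overlapped at Ndufa11 and Ndufs7, and both SOX17FNV values lay below both SOX2 values at Ndufa9. The strongest region of Ndufa9 did not hold its listed start site.

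All 8 complex I assembly factors, which build the complex and are not part of it, had a shared region, with a median relative pileup of 1.88. Ndufaf3 had pileups of 104 and 58 in the SOX17FNV libraries, against 79 and 67 in the SOX2 libraries, and Ndufaf8 had 79 and 64 in the SOX17FNV libraries, against 76 and 65 in the SOX2 libraries. At both genes the 2 SOX17FNV libraries lay above the 2 SOX2 libraries in relative pileup, by a log2 difference of 0.25 (SE 0.17) and 0.17 (SE 0.17), with limma adjusted p-values of 0.573 and 0.732. Ndufaf1, an early assembly factor, was the lowest at 37 and 33 in the SOX17FNV libraries, against 46 and 31 in the SOX2 libraries. The 4 complex II assembly factors had a median of 1.61, and the lowest of them, Sdhaf4, had 37 and 28 in the SOX17FNV libraries, against 39 and 40 in the SOX2 libraries.

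All 4 complex II genes had a shared region, with a median relative pileup of 1.80. Sdhb, the iron-sulfur subunit, led with pileups of 64 and 72 in the SOX17FNV libraries, against 64 and 62 in the SOX2 libraries. Sdhd, a membrane anchor, had 68 and 55 in the SOX17FNV libraries, against 56 and 43 in the SOX2 libraries. Sdhc, the other membrane anchor, was the lowest with 42 and 42 in the SOX17FNV libraries, against 49 and 42 in the SOX2 libraries. The groups overlapped at Sdhb and Sdhc and did not overlap at Sdhd, where SOX17FNV was higher. All 8 complex III genes also had a shared region, with a median of 1.84. Uqcrq, an accessory subunit, had 64 and 69 in the SOX17FNV libraries, against 73 and 73 in the SOX2 libraries. Uqcrc1, a core protein, had 79 and 62 in the SOX17FNV libraries, against 60 and 53 in the SOX2 libraries. Uqcrfs1, the Rieske iron-sulfur protein, was the lowest with 46 and 32 in the SOX17FNV libraries, against 50 and 37 in the SOX2 libraries. Relative to their libraries, SOX17FNV was higher without overlap at Uqcrc1, and the groups overlapped at Uqcrq and Uqcrfs1.

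The 17 genes of ATP synthase, which makes ATP, all had a shared region, with a median relative pileup of 1.73. Atp5g1, one of the genes for the c-ring subunit, had pileups of 89 and 73 in the SOX17FNV libraries, against 76 and 75 in the SOX2 libraries. Atp5b, the catalytic beta subunit, had 81 and 62 in the SOX17FNV libraries, against 77 and 68 in the SOX2 libraries. Atp5l, the g subunit, was the lowest with 41 and 25 in the SOX17FNV libraries, against 39 and 39 in the SOX2 libraries. After scaling to the library, both SOX17FNV values lay above both SOX2 values at Atp5g1 and Atp5b, with log2 differences of 0.25 and 0.12 (SE 0.17 each, limma adjusted p = 0.567 and 0.823), and the groups overlapped at Atp5l.

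Complex IV had the widest spread, with a median of 1.55 over 18 genes. Its subunits come in broadly expressed isoforms and in isoforms restricted to some tissues. Peaks were called in all 4 libraries at 7 of 7 broad isoforms and at 6 of 8 restricted ones. The restricted share, 75%, was near the 74% of all protein-coding genes. Ndufa4 and its paralog Ndufa4l2 are counted here because Ndufa4 is a complex IV subunit. Of the broad isoforms, Cox8a had the highest relative pileup, 2.76 ± 0.046 in SOX17FNV and 1.95 ± 0.030 in SOX2 libraries (SD, n = 2 each). Its log2 difference was 0.50 (SE 0.17, limma adjusted p = 0.110 without a replicate block) and 0.33 with the deposited fold. Cox7b was the lowest of the broad isoforms, with pileups of 40 and 23 in the SOX17FNV libraries, against 43 and 19 in the SOX2 libraries, a mean relative pileup of 1.02. Cox4i1, Cox6a1, Cox6b1, Cox7a2 and Ndufa4 lay between 1.24 and 1.85.

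In relative pileup, the restricted isoforms did not form 1 class. Cox6b2, known as the testis form, had the highest relative pileup of all 96 genes. Its summit pileups came to 83 and 73 with SOX17FNV, and 86 and 79 with SOX2. Its region, chr7:4751829-4753412, covered the start site and nearly the whole gene. At the broad form Cox6b1 they came to 38 and 30 with SOX17FNV, and 48 and 33 with SOX2. In deposited fold enrichment, Cox6b2 stood at percentiles 68.5 and 83.0 (SOX17FNV) and 69.3 and 88.1 (SOX2). These lay below the values of the median respiratory chain gene, 88.5 and 89.7 (SOX17FNV) and 87.1 and 90.6 (SOX2). Cox6b1 stood at 64.2 and 66.6 (SOX17FNV) and 72.9 and 68.3 (SOX2). It lay above Cox6b2 in SOX2 replicate 1 and below it in every other library. Ndufa4l2, known as induced by hypoxia, and Cox7a1, a muscle form, had mean relative pileups of 1.87 and 1.57. Their broad counterparts Ndufa4 and Cox7a2 were close in this measure, at 1.85 and 1.71. By the deposited fold enrichment both restricted forms stood lower. Ndufa4l2 was at percentiles 45.2 and 36.8 (SOX17FNV) and 43.8 and 63.6 (SOX2), against 95.9, 98.8, 94.4 and 98.3 for Ndufa4. Cox7a1 was at 64.0 and 54.7 (SOX17FNV) and 48.9 and 46.2 (SOX2), against 98.0, 99.9, 99.4 and 99.0 for Cox7a2. Cox4i2, known from lung, had a mean relative pileup of 0.763, against 1.78 for Cox4i1. Cox4i2 had pileups of 20 and 21 in the SOX17FNV libraries, against 25 and 24 in the SOX2 libraries. Cox8c, a testis form, was the lowest of all, with 18 and 11 in the SOX17FNV libraries, against 18 and 15 in the SOX2 libraries. Cox7b2 had 18 and 23 in the SOX17FNV libraries, against 22 and 21 in the SOX2 libraries at a region that did not hold its start site. Cox6a2 and Cox8b had no peak. In relative pileup the groups overlapped at each restricted isoform with a peak except Ndufa4l2, where both SOX17FNV values lay below both SOX2 values (log2 difference -0.16, SE 0.17, limma adjusted p = 0.765).

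**Figure D4:**
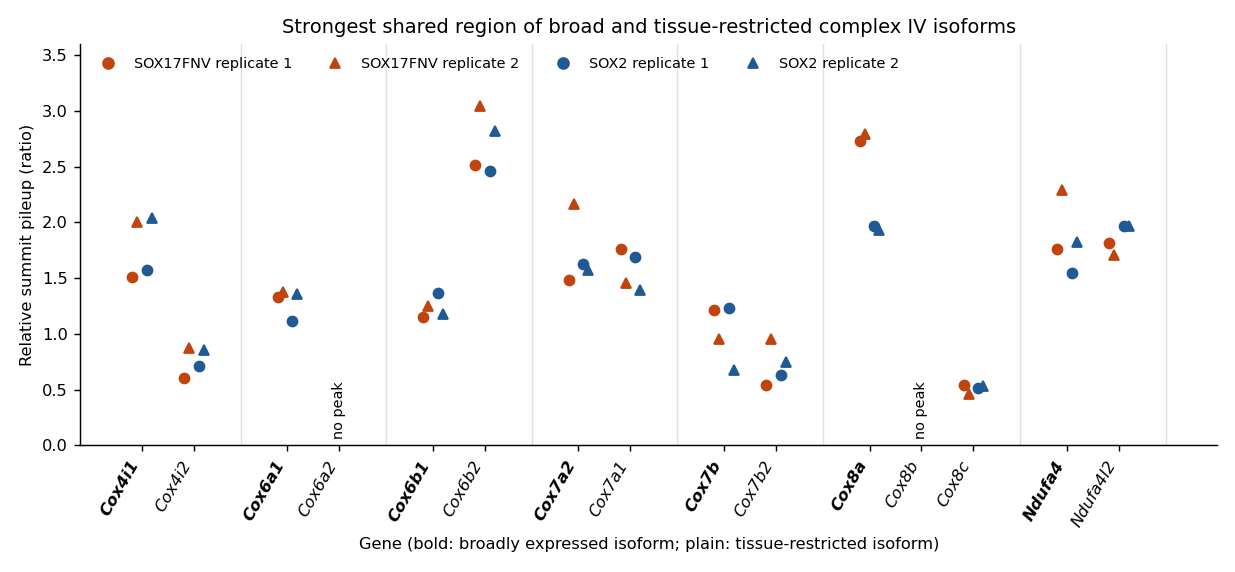
Relative pileup (ratio, vertical axis from 0) at the strongest shared region of complex IV isoforms, with the broad isoform of each subunit in bold and its restricted isoforms beside it. Red marks SOX17FNV and blue SOX2, with circles for replicate 1 and triangles for replicate 2. Cox6b2 stands above Cox6b1 in every library, Cox4i2 and Cox8c stand below Cox4i1 and Cox8a in every library, and Cox6a2 and Cox8b have no peak.

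Differences between the groups were small, and in bulk libraries a change in every cell and a change in some of the cells cannot be told apart. Pileups of the 57783 shared regions were compared on the log2 scale, each library centred on its median, with limma and Benjamini-Hochberg adjustment over all of them. Of all shared regions, 516 (0.893%) were higher and 710 (1.23%) lower with SOX17FNV at an adjusted p of 0.05. Higher calls thus made up 42.1%, a share that stood at 29.0% after quantile normalization or centring by chromosome and at 18.3% with the deposited fold enrichment. Of the 141 shared regions of respiratory chain genes, 0 were called higher and 1 was called lower. An unadjusted p below 0.05 was found at 13 (9.22%), against 13.5% of all shared regions.

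None of the 96 strongest regions passed the test without a replicate block, and the lowest adjusted p among them was 0.110. Their log2 differences ran from -0.53 to 0.50, with a median SE of 0.18. At 26 of the 96, both SOX17FNV libraries lay above both SOX2 libraries, at 6 they lay below, and at 64 the groups overlapped. As shares these are 27.1% above and 6.25% below, beside 26.1% and 13.8% of the 14378 strongest regions of all protein-coding genes. Over the 141 shared regions the count was 39 above (27.7%) and 15 below (10.6%), beside 24.1% and 18.5% of all shared regions. The median log2 difference was 0.10, beside 0.04 for all shared regions, and 69.5% of the differences were above 0, beside 55.2%. That median went to -0.00023 without SOX2 replicate 1, beside -0.056 for all shared regions, so the gap between them was 0.055, close to the 0.063 with all libraries. It was 0.025 after quantile normalization (all regions 0.0058), 0.020 with the deposited fold enrichment (all regions -0.012) and 0.053 over the regions with a mean −log10 q of at least 10 (all regions 0.012). With the deposited fold enrichment 19 of the 141 regions lay above. A lean of this kind was also present at other start sites. Of the 83 respiratory chain regions that held a listed start site, 28.9% lay above and 6.02% below, with a median log2 difference of 0.13. Of all 9911 shared regions over a start site, 24.7% lay above and 14.3% below, with a median of 0.055. Among the 3338 of these with relative pileups between the quartiles of the strongest respiratory chain regions, the shares were 29.3% and 9.62% and the median 0.083.

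**Figure D5:**
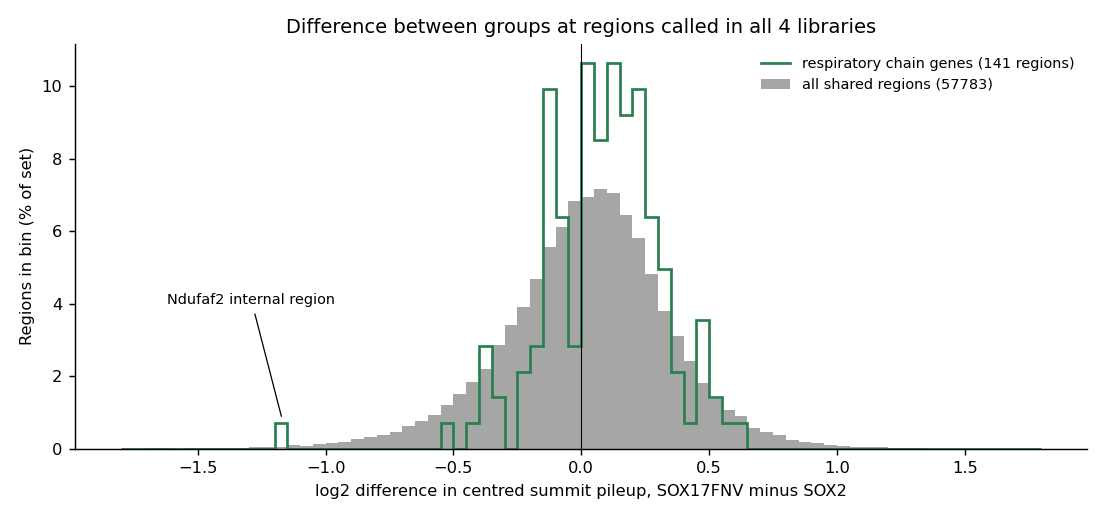
Log2 difference in centred pileup, SOX17FNV minus SOX2 (horizontal axis), against the share of regions per bin (%), for 141 shared regions of respiratory chain genes (green line) and all 57783 shared regions (grey). The 141 regions have a median of 0.10 beside 0.04 for all, and the only one called, inside Ndufaf2, stands alone at -1.17.

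The largest positive differences among strongest regions were at genes of several complexes. Cox8a had pileups of 90 and 67 in the SOX17FNV libraries, against 69 and 54 in the SOX2 libraries, a log2 difference of 0.50 (SE 0.17, 95% interval 0.17 to 0.84, limma adjusted p = 0.110). Sdhd and Uqcrc1, with the pileups given above, had differences of 0.47 each (SE 0.17 each, adjusted p = 0.165 and 0.158). Ndufv3, an accessory subunit of complex I, had 63 and 57 in the SOX17FNV libraries, against 54 and 44 in the SOX2 libraries, a difference of 0.45 (adjusted p = 0.202). Ndufa13, another accessory subunit, had 80 and 74 in the SOX17FNV libraries, against 70 and 58 in the SOX2 libraries, a difference of 0.43 (adjusted p = 0.218). At all 5 genes, both SOX17FNV libraries lay above both SOX2 libraries in relative pileup, as at 26.1% of the strongest regions of all protein-coding genes. The 5 genes were chosen by the size of the difference, so this adds no support to it. The shared regions within 5 Mb of these genes had medians between -0.01 and 0.11. None of the 5 passed the threshold in this fit, which has no replicate block.

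The 5 most negative differences included Ndufa1 and Ndufb11, accessory subunits of complex I encoded on chromosome X. Ndufa1 had pileups of 31 and 24 in the SOX17FNV libraries, against 48 and 40 in the SOX2 libraries, a log2 difference of -0.53 (SE 0.21, limma adjusted p = 0.200). Ndufb11 had 49 and 42 in the SOX17FNV libraries, against 60 and 67 in the SOX2 libraries, a difference of -0.33 (SE 0.18, adjusted p = 0.449), which was -0.19 with each chromosome centred and turned to 0.044 with the deposited fold enrichment. With the deposited fold, Ndufa1 came to -0.0061. Their surroundings moved with them: the shared regions within 5 Mb had medians of -0.42 at Ndufa1 and -0.33 at Ndufb11, and the part of this in the values of the 2 genes was not tested. Both regions also hold the start site of another gene, Rnf113a1 and Rbm10. Ndufa9 on chromosome 6 had a difference of -0.36 (SE 0.23, adjusted p = 0.541), within surroundings at -0.21, and came to -0.055 with the deposited fold. Atp5j2, the f subunit of ATP synthase, had 35 and 37 in the SOX17FNV libraries, against 63 and 47 in the SOX2 libraries. The log2 difference of Atp5j2 was -0.44 (SE 0.19, adjusted p = 0.277), within surroundings at 0.08, and came to -0.28 with the deposited fold. Sdha, the flavoprotein of complex II, had 49 and 41 in the SOX17FNV libraries, against 70 and 49 in the SOX2 libraries. The difference of Sdha was -0.23 (SE 0.18, adjusted p = 0.627), within surroundings at 0.0057, and came to -0.25 with the deposited fold. Whether Atp5j2 and Sdha differ from their surroundings was not tested. Both SOX17FNV libraries lay below both SOX2 libraries in relative pileup at Ndufa1, Ndufa9, Atp5j2 and Sdha, and the groups overlapped at Ndufb11. The share below was 13.8% over the strongest regions of all protein-coding genes. These 5 genes were also chosen by the size of the difference, so the lack of overlap adds no support to it.

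The 1 region that passed the test lay deep inside Ndufaf2, a complex I assembly factor, and not at its promoter. The region, chr13:108119588-108120654, is 1067 bp wide and 37998 bp from the nearer end of the gene, and exons are not annotated in the table used. It had summit pileups of 15 and 13 in the SOX17FNV libraries, against 33 and 37 in the SOX2 libraries, so the groups did not overlap. The log2 difference was -1.17 (SE 0.27, 95% interval -1.71 to -0.63, limma adjusted p = 0.0115). Within its own list it stood at percentile 41.2 and 40.9 of the SOX17FNV lists and at 89.5 and 96.0 of the SOX2 lists. None of the 30 shared regions around it within 1 Mb, nor of the 222 within 5 Mb, had a lower difference, and their medians were -0.16 and -0.00032. Both SOX17FNV libraries lay below both SOX2 libraries at 18.5% of all shared regions. This region was named because it was called, so its percentiles, its rank and the lack of overlap add no support to the call. The promoter region of Ndufaf2, shared with Ercc8, had pileups of 67 and 52 in the SOX17FNV libraries, against 62 and 56 in the SOX2 libraries, a difference of 0.16 (SE 0.17, adjusted p = 0.769). The call ended without SOX2 replicate 1 (log2 difference -1.47, adjusted p = 0.0595), without SOX2 replicate 2 (-0.98, adjusted p = 0.173) and after quantile normalization (-1.15, adjusted p = 0.0505). It held without either SOX17FNV library, with adjusted p-values of 0.0237 and 0.00321.

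Few regions of these genes were called in 1 group only. Of the 246 regions, 6 (2.44%) had a peak in both SOX17FNV and in neither of the SOX2 libraries, beside 3.06% of all 170898 regions. Another 2 (0.813%) had one in both SOX2 and in neither of the SOX17FNV libraries, beside 4.09%. All 8 were narrow, from 273 to 557 bp, and none covered the end of a gene. The counts moved both ways with the peaks used. With a −log10 q of at least 5, 3 regions were left for SOX17FNV and 1 for SOX2, with lists of equal length there were 11 and 1, and leaving out 1 library gave up to 22 and 26.

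Ndufab1, the mitochondrial acyl carrier protein and a complex I subunit, held 2 of the SOX17FNV regions. At chr7:122099149-122099592 the SOX17FNV libraries had pileups of 33 and 34, and at chr7:122094536-122094859 they had 24 and 26. Ndufa11 had 26 and 31 in the SOX17FNV libraries at chr17:56723811-56724116, near the end of the gene that does not hold its start site. These are the highest pileups among the 8 regions. Sdhc had 16 and 15 in the SOX17FNV libraries at chr1:171134187-171134586, and the complex I subunit gene Ndufs4 had 18 and 14 in them at chr13:114333810-114334312. Atp5c1, the gamma subunit of ATP synthase, had a region of each kind, with 14 and 10 in the SOX17FNV libraries at chr2:10054922-10055478, outside the gene, and 19 and 18 in the SOX2 libraries at chr2:10071925-10072197, inside it. Ndufaf2 had 13 and 16 in the SOX2 libraries at chr13:108056727-108057109. The lowest pileup of any region of the 100 genes was 10, so several of these regions stood near the limit of calling.

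Other genes of the pathway looked alike. A list of 33 further genes for oxidative phosphorylation, mainly assembly factors and cytochrome c, had a peak at 33 genes in all 4 libraries and an open start site at 26 of 27. Of their 113 regions, 4 were SOX17FNV-only (3.54%, beside 3.06% of all regions), 2 at Acad9 and 1 each at Cox16 and Ttc19. Another 5 were SOX2-only (4.42%, beside 4.09%), 3 at Ttc19 and 1 each at Nubpl and Atpaf1. None of their 54 shared regions was called by limma, beside 0.893% called higher and 1.23% called lower of all shared regions. All 17 regulators of mitochondrial genes had a peak in all 4 libraries, and 14 of 16 had an open start site there, Ppargc1a and Yy1 having no peak over the listed start in any library. Of their 120 regions, 3 were SOX17FNV-only (2.50%) and 7 SOX2-only (5.83%), and limma called none of their 30 shared regions. Nrf1 and Yy1 each held 1 SOX17FNV-only and 2 SOX2-only regions, Pprc1 held 1 of each, and Gabpa and Ppargc1b held 1 SOX2-only region each.

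All 15 genes of the citric acid cycle and all 17 of glycolysis had a peak in all 4 libraries. Start sites were open in all 4 at 13 of 13 and 16 of 16 listed genes. Of the 90 regions of the citric acid cycle genes, 2 were SOX17FNV-only (2.22%, beside 3.06% of all regions), at Ogdh and Sucla2. Another 3 were SOX2-only (3.33%, beside 4.09%), at Idh3b, Dlst and Suclg2, and limma called none of their 31 shared regions. Of the 125 regions of the glycolysis genes, 3 were SOX17FNV-only (2.40%), at Hk1, Hk2 and Pfkm, and 4 SOX2-only (3.20%), at Hk2, Pfkp, Tpi1 and Slc2a3. Of the 48 shared regions of the glycolysis genes, limma called 1 (2.08%), lower with SOX17FNV, beside 1.23% called lower of all shared regions. It lay at Slc2a3, a glucose transporter gene (limma adjusted p = 0.00386). Median log2 differences over shared regions were 0.13 for the further oxidative phosphorylation genes, 0.03 for the regulators, 0.04 for the citric acid cycle and 0.05 for glycolysis, beside 0.05 for the mitochondrial ribosomal protein genes and 0.10 for the respiratory chain genes.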

How the data were processed

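ATAC-seq was measured in 2 SOX17FNV and 2 SOX2 libraries. Bowtie2, SAMtools and MACS2 and the build mm10 are named in the submitters' processing notes, while versions, settings and read shifts were not stated there. The authors deposited 1 narrowPeak list per library, called per library. The deposited lists hold each peak's position, a score that the authors' peak caller wrote as 10 times the −log10 q, rounded down, the fold enrichment as a ratio of summit pileup to local background, and the −log10 of the p-value and q-value. The lowest deposited −log10 q was 1.30.

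The fold and the Poisson p were solved for a whole-number pileup, which met the deposited −log10 p within 0.001 for 100% of summits. The highest summit in a region was used. Read totals were not in the lists, and depth was described by these pileups, the lowest background pileup and the list lengths. The steps were tested on simulated data. Regions called in all 4 libraries entered limma 3.58.1 (R 4.3.3, eBayes with trend, 2 residual and 36.9 prior degrees of freedom), SOX17FNV minus SOX2, adjusted after Benjamini-Hochberg with a threshold of 0.05. A gene was called where a peak overlapped its span plus 1 kb by at least 1 bp.

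Spans, start sites and promoters came from RefSeq GRCm38.p6, and 82 genes matched the promoter table. The genes and gene lists were chosen with earlier results of these data known. Named were the genes with a region of 1 group or with missing peaks, the 2 highest and the lowest per complex, the 5 highest and 5 lowest differences, and the isoforms. Alternatives covered margins, thresholds, list length, overlap, centring, the fold, a replicate block, motif window and leaving out each library.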

Additional observations from a re-analysis of the deposited data

How the results depend on the processing

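The number of genes called in all 4 libraries stayed between 76 (peaks with a −log10 q of at least 10) and 97 (5 kb margin). SOX17FNV-only regions numbered 3 and 1 at a −log10 q of at least 5 and 10, and 11 with lists cut to 92851 peaks. SOX2-only regions numbered 4 with a 5 kb margin, 1 and 1 at those thresholds, 1 with the shortened lists and 4 where peaks had to cover most of a region. Leaving out 1 library gave 6 to 22 SOX17FNV-only and 7 to 26 SOX2-only regions, which compares 1 library with 2. Over all shared regions limma called 462 after quantile normalization, 208 with the deposited fold enrichment, 747 over regions with a mean −log10 q of at least 10 and 114 to 1622 with 1 library left out, against 1226. Among the respiratory chain regions it called 0 of the 141 after quantile normalization. It called 0 of the 103 left at a mean −log10 q of at least 10, a set without the internal Ndufaf2 region. With 1 library left out, the lone library of a group is assumed to vary like the other group. The median log2 difference of the 141 was 0.025 after quantile normalization and 0.020 with the fold. It was 0.053 over the 103 regions at 10, and -0.00023 to 0.14 over 141 to 154 regions with 1 library left out. With the fold, 19 regions lay above in SOX17FNV and Ndufb11 reversed to 0.044. Of 86 values for the named regions under the alternatives other than the block, which leaves them as they are, 85 kept their direction, with Ndufa1 near 0 at -0.0061 with the fold. In the 150 base window the SOX core was found in 1 gene and the SP1 box in 19. The cause of these changes was not tested. The labels give both groups replicates 1 and 2 without saying that the numbers pair the libraries. The names of the deposited lists carry 1 tag for replicate 1 and another for replicate 2 in both groups, and the labels do not explain it. Deviations of same-numbered libraries correlated at r = 0.233 over regions with only 2 pairs. With the replicate block, limma called 3674 of all shared regions, or 6.36% (51.3% of the calls higher, against 42.1% without it). It called 7 of the 141, a lower share than over all shared regions. Adjusted p-values in that limma fit were 0.00658 at Cox8a, 0.0217 at Uqcrc1, 0.0267 at Ndufa13, 0.0355 at Sdhd and 0.0494 at Ndufv3. Replicate 2 called fewer of the 246 regions, 176 in SOX17FNV and 168 in SOX2, against 194 and 199 in replicate 1, and the part of depth in this was not tested.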
